A study of Mus musculus with 4 samples.

Results

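Cytotoxic lymphocytes are the natural killer (NK) cells and killer T cells that destroy infected, stressed or transformed cells, and 10 genes of their killing machinery and identity were examined in mouse liver by RNA sequencing. They were found by symbol, and all 10 were listed among the 24346 gene symbols of each library. They fall into 3 roles, namely granule proteins (Gzma, Gzmb, Gzmk, Prf1 and Nkg7), surface receptors (Klrd1, Klrk1 and Ncr1) and T-box transcription factors (Eomes and Tbx21). All livers came from C57BL/6 mice that ate a steatohepatitis-inducing diet high in fat, cholesterol and sucrose, with added bile salt, for 3 weeks (NASH diet). The diet of the 7KC group (n = 2) also contained 7-ketocholesterol (7KC), an oxidation product of cholesterol, which the diet of the controls (n = 2) lacked. The labels gave no age and did not say whether the 2 samples of a group came from separate animals, so a p-value measures the spread between these samples. Every value is from a liver on the NASH diet, and normal-diet livers were not analysed here.

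A killer cell that meets its target releases granules into the contact zone. Perforin opens the membrane of the target and granzymes, a family of serine proteases, enter and start its death. NK cells choose targets by the balance of activating and inhibitory receptors, whereas killer T cells use the T cell receptor, and both depend on the T-box factors T-bet (Tbx21) and Eomesodermin (Eomes). The mouse liver is rich in such cells, among them NK cells, type 1 innate lymphoid cells (ILC1) and CD8+ T cells.

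Values are FPKM, the fragments mapped to a gene per kilobase of its exons, scaled to the mapped fragments of the library, so levels can be compared between genes. Gene positions are those of GENCODE M21 on build GRCm38. The steps of the low values put the depth at about 17080000 and 13780000 reads for control replicates 1 and 2, and at about 13640000 and 13740000 for the 7KC replicates. In bulk tissue, more cells of a type and more RNA per cell cannot be told apart. All 4 libraries were those of liver by their hepatocyte markers, with albumin (Alb) at 18988 to 41547 FPKM, whereas the summed level of the 10 members was 13.3 and 9.11 FPKM in the control samples and 35.6 and 26.6 FPKM in the 7KC samples.

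The comparison asked how these genes differed between NASH-diet livers with and without dietary 7KC. In each of the 10 members, both 7KC samples lay above both control samples, and in 9 of the 10 the group means differed at least 2-fold. Eomes had a ratio that rounds to 2.00 and lay just under the limit. Among the 16858 genes above 0 in at least 1 library, 24.8% were higher in 7KC without overlap of the libraries and 9.18% were so with a fold of at least 2. In the other direction, 22.2% were lower without overlap and 1.79% were so with a fold of at least 2. The 10 members are expressed by overlapping cell types, so they are not independent of each other, and they were chosen with earlier results of these data known.

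**Figure D1:**
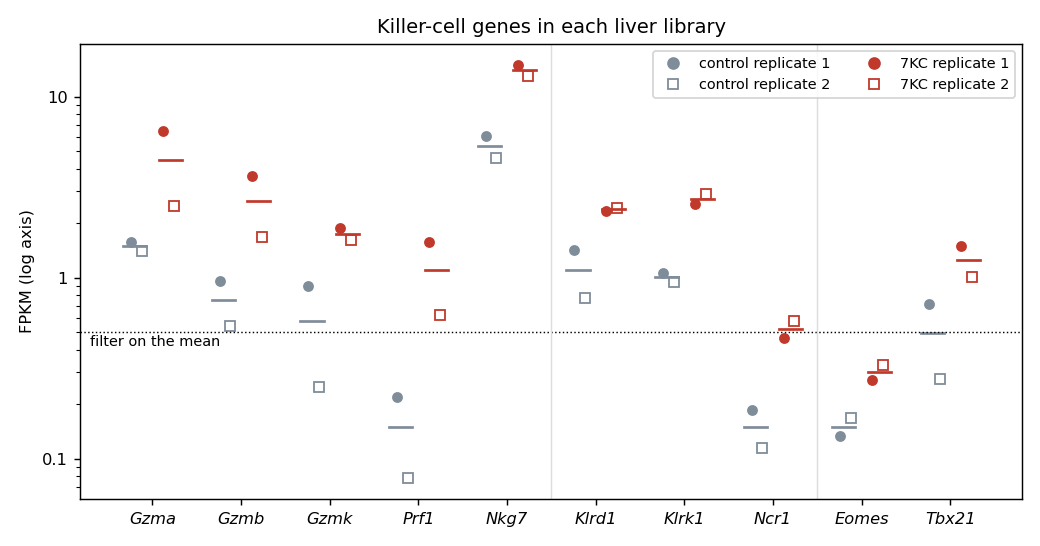
The level of each member in FPKM (log axis) in the control samples (grey) and the 7KC samples (red), with circles for replicate 1, squares for replicate 2 and bars for the group means; the dotted line is the filter of 0.5 FPKM on the mean of the 4 libraries. In all 10 genes both red points lie above both grey points, and the 2 red points lie farthest apart for Gzma, Prf1 and Gzmb.

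No member passed the threshold of the test across all genes. The test, limma, was run on the 12299 genes whose mean over the 4 libraries reached 0.5 FPKM, and 8 members were among them. Prf1 and Tbx21 had control means below that limit and passed the filter through their 7KC samples, so the 8 are not a neutral selection. At an adjusted p under 0.05, 0 of the 8 were higher and 0 were lower, and the shares of all tested genes were 0.48% and 0.0244%. In the other direction of the fold rule, 0 of the 8 were at least 2-fold lower without overlap (0.512% of all tested genes), and 0 were lower at an unadjusted p under 0.05 (5.81%). In the fit without a filter, all 10 had an unadjusted p under 0.05 and a higher level in 7KC, where 10.6% of 16858 genes did. That fit called 0 genes higher and 0.00593% lower after adjustment, so it could call none of the members higher. Each log2 change is on the scale of log2(FPKM + 0.5), which compresses differences at low levels. The median log2 change was 1.12 over the 10 members and 0.00 over all genes of that fit.

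Nkg7 (chr7:43437073-43438249, plus strand), a membrane protein of cytotoxic granules that takes part in their release, was the most abundant member in every library. It stood at 6.09 and 4.56 FPKM in the control samples and at 15.0 and 13.0 FPKM in the 7KC samples. Both 7KC samples were more than 2-fold above the higher control library, and it came closest to the threshold, with a log2 difference of 1.32 (limma SE 0.17 and adjusted p 0.0523). Its call depended on the processing, since it passed when the libraries were rescaled to the same sum (limma adjusted p 0.0199).

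Gzma (chr13:113093825-113100981, minus strand) encodes granzyme A, a trypsin-like protease abundant in NK cells. It was at 1.57 and 1.41 FPKM in the control samples, and at 6.44 and 2.49 FPKM in the 7KC samples. The 7KC samples lay 2.58-fold apart, a wider gap than that between the highest control library and the lower 7KC library. The log2 change was 1.20 (limma SE 0.40 and adjusted p 0.224), and the ratio of the means of 3.00 became 1.67 without 7KC replicate 1.

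Gzmb (chr14:56258838-56262260, minus strand) encodes granzyme B, which cleaves after aspartate and acts on caspases and Bid in the target cell. Its levels were 0.964 and 0.538 FPKM in the control samples and 3.62 and 1.68 FPKM in the 7KC samples. As for Gzma, replicate 1 of the 7KC group was the high library, by 2.16-fold over replicate 2. The log2 change was 1.28 (limma SE 0.36 and adjusted p 0.172), and the ratio of means was 3.52, or 2.23 without 7KC replicate 1.

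Prf1 (chr10:61297833-61304680, plus strand) encodes perforin, the pore former without which granzymes do not enter the target cell. It had the largest ratio of means of the 10 genes and the lowest level of the granule genes, with 0.220 and 0.0781 FPKM in the control samples and 1.57 and 0.625 FPKM in the 7KC samples. The control values stood for 6.7 and 1.9 reads at the length of the shortest coding transcript, against 38.0 and 15.2 reads in the 7KC samples. The ratio of means was 7.37, and the ratio of the summed reads per depth was 6.64, with an exact 95% interval of 3.25 to 15.3 that covers counting error only. Without control replicate 1, whose removal leaves about 2 reads in the control group, the ratio of means was 14.1. Leaving out control replicate 2 gave 4.99, while leaving out the first or the second 7KC sample gave 4.19 or 10.6. The log2 change was 1.24 (limma SE 0.35 and adjusted p 0.175), or 2.21 with a pseudocount of 0.1 (adjusted p 0.163).

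Gzmk (chr13:113171608-113225908, minus strand) encodes granzyme K, a trypsin-like protease found in memory-like and tissue CD8+ T cells. The values were 0.902 and 0.249 FPKM in the control group, and 1.88 and 1.62 FPKM in the 7KC group. Here the control samples were the pair that lay apart, by 3.63-fold, and the 7KC samples differed by 1.16-fold. The log2 change was 1.13 (limma SE 0.33 and adjusted p 0.186). The ratio of means was 3.04, but 7.03 without control replicate 1, where the gene passed (limma adjusted p 0.0375), and 1.94 without control replicate 2.

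In the other 7 granzyme genes the groups overlapped or the gene was listed at 0. Gzmd, Gzme, Gzmf, Gzmg and Gzmn were listed at 0 in all 4 libraries. Gzmc was at 0.563 and 0.0998 FPKM in the control samples and at 1.01 and 0.0999 FPKM in the 7KC samples, and Gzmm was at 0.190 and 0.0671 against 0.248 and 0.0788 FPKM. For both genes the groups overlapped, the 7KC samples lay far apart and the means were under the filter of 0.5 FPKM. Gzmc to Gzmg and Gzmn lie in a cluster of closely related genes, and their single values are uncertain.

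Among the receptors, Klrk1 (chr6:129610323-129623864, minus strand) encodes NKG2D, an activating receptor of NK cells and activated CD8+ T cells for stress-induced ligands. It was at 1.06 and 0.945 FPKM in the control samples and at 2.54 and 2.91 FPKM in the 7KC samples. Both groups were tight for this gene, and the log2 change was 1.10 (limma SE 0.16 and adjusted p 0.0596). Klrk1 also passed when the libraries were rescaled to the same sum (limma adjusted p 0.0405).

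Klrd1 (chr6:129591782-129598775, plus strand) encodes CD94, the partner of the NKG2 receptors that read the class I molecule Qa-1. It was at 1.42 and 0.772 FPKM in the control group and at 2.33 and 2.43 FPKM in the 7KC group. The 7KC samples were nearly equal and the control samples differed by 1.84-fold. The log2 change was 0.88 (limma SE 0.24 and adjusted p 0.159), and the ratio of means was 2.17, or 1.67 without control replicate 2.

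Ncr1 (chr7:4337724-4345164, plus strand) encodes NKp46, the receptor that marks NK cells and ILC1 most specifically. It was at 0.185 and 0.115 FPKM in the control samples and at 0.464 and 0.576 FPKM in the 7KC samples, under the filter on the mean. The reads behind these values were few, at most 4.1 and 2.1 in the control samples and 8.2 and 10.3 in the 7KC samples at the length of the longest coding transcript. The ratio of the summed reads per depth was 3.38, with an exact 95% counting interval of 1.29 to 10.4. In the fit without a filter the log2 change was 0.65 (limma SE 0.12 and adjusted p 0.165).

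Tbx21 (chr11:97098071-97115331, minus strand) encodes T-bet, which drives interferon-gamma and granule genes in NK cells, ILC1 and T helper 1 cells. It was at 0.718 and 0.276 FPKM in the control samples and at 1.49 and 1.01 FPKM in the 7KC samples. The control samples lay 2.60-fold apart, close to the ratio of the group means of 2.51, and that ratio became 4.52 when control replicate 1 was left out and 1.74 when control replicate 2 was. The log2 difference of 0.83 (limma SE 0.29 and adjusted p 0.241) was the smallest of the 8 tested members.

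Eomes (chr9:118478212-118486132, plus strand), the T-box factor of mature NK cells and memory CD8+ T cells, was the least abundant member in 3 of the 4 libraries. It was at 0.134 and 0.167 FPKM in the control group and at 0.273 and 0.329 FPKM in the 7KC group, which rested on 3.3 to 6.5 reads per library at the shortest coding transcript. The exact 95% counting interval of the ratio of summed reads, 0.701 to 5.79, included a ratio of 1. Without a filter the log2 change was 0.30 (limma SE 0.09 and adjusted p 0.273).

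**Figure D2:**
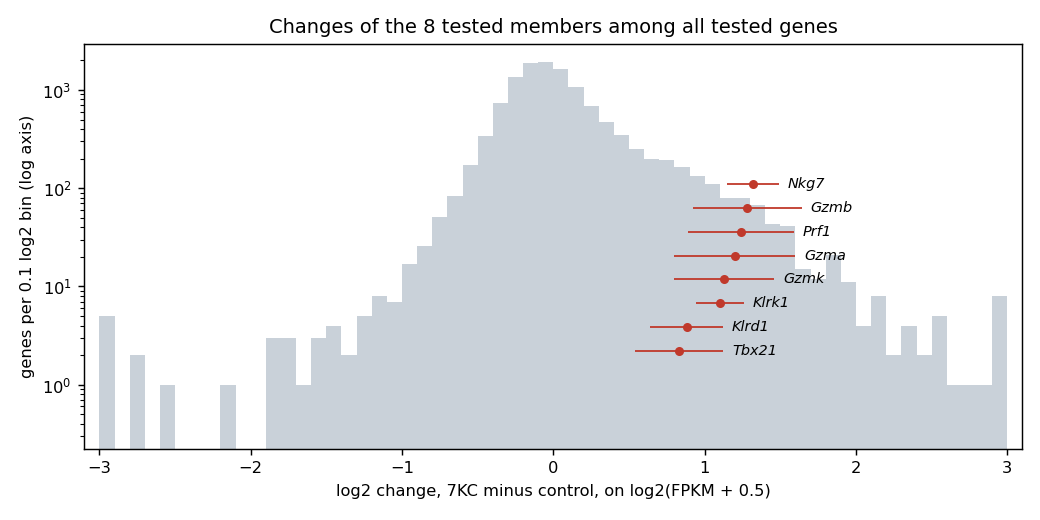
The log2 change of the 8 tested members (red points with bars of 1 SE, at arbitrary heights) over the histogram of all 12299 tested genes (log axis, bins of 0.1, genes beyond 3 in either direction placed in the end bins). The members lie between 0.83 for Tbx21 and 1.32 for Nkg7, on the upper side of the histogram.

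The promoters of the members are shown because T-bet and Eomes, both members, act through a common DNA element. In the RefSeq promoters of build GRCm38.p6, 9 of the 10 members were found, and Klrd1 was not matched. The 250 bases before each start were searched on both strands for TCACAC, the core of the T-box motif. It was in the window of 4 members, Gzmb, Gzmk, Nkg7 and Ncr1, and in 12.3% of all 32851 promoters of this length. The 4 windows follow, on the strand of the gene with TCACAC or its reverse complement GTGTGA in capitals, for Gzmb (chr14:56262335-56262584, minus strand), Gzmk (chr13:113180966-113181215, minus strand), Nkg7 (chr7:43436888-43437137, plus strand) and Ncr1 (chr7:4337465-4337714, plus strand).
Gzmb: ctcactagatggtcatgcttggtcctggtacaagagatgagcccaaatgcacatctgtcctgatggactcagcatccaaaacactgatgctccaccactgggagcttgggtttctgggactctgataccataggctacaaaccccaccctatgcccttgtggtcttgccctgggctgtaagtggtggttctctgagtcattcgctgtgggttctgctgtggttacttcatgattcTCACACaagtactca
Gzmk: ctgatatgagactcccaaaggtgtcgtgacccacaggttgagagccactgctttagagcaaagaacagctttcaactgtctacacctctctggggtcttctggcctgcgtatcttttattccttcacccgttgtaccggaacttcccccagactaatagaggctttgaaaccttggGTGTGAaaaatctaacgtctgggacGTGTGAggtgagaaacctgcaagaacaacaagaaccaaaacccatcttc
Nkg7: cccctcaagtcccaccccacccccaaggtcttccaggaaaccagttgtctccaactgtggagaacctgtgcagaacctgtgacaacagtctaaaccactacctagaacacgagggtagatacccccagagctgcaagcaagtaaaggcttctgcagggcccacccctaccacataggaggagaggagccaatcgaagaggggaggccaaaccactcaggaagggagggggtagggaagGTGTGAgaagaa
Ncr1: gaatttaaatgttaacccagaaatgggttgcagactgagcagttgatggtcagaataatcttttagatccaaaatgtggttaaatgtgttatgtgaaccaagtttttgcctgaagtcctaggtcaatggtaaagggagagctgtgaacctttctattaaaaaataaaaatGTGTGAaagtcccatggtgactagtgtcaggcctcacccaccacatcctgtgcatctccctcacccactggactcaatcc
The match in Gzmb ends 9 bases before the start and that in Nkg7 ends 6 bases before it, while Gzmk held 2 matches, 68 and 43 bases from the start, and that of Ncr1 lay 74 bases away, or 83 from its other listed start. The start of Gzmk in RefSeq lies inside the longer span of the gene in GENCODE. ACCACA, the core read by Runx factors, was in a window of 6 of the 9 members (Gzma, Gzmb, Prf1, Nkg7, Klrk1 and Ncr1) and in 14% of all promoters. TTCNNNGAA, the Stat element, was in a window of 1 of the 9, Nkg7, and in 7.02% of all promoters. These shares and that of TCACAC count promoter entries, whereas members are counted as genes. A gene such as Ncr1 can have more than 1 entry. No T-box match overlapped a Runx or Stat match in these windows. A match describes the letters of the window and is no evidence of binding.

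The members differed in which 7KC library was higher. Gzma, Prf1 and Gzmb were 2.58-, 2.52- and 2.16-fold higher in 7KC replicate 1 than in replicate 2. Nkg7 and Gzmk had a ratio of 1.16, and Klrd1, Klrk1, Eomes and Ncr1 had ratios of 0.961, 0.873, 0.832 and 0.806, so replicate 2 was slightly higher in these. Ifng, the interferon-gamma gene, had a ratio of 2.17 between the same libraries, Cxcl10, an interferon-inducible chemokine gene, 1.88, and Ptprc (CD45), which all leukocytes express, 0.754. With 2 libraries a group this split was not tested.

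The members were then set against leukocyte genes of the same library. Ptprc was at 8.47 and 5.65 FPKM in the control samples and at 15.5 and 20.6 FPKM in the 7KC samples (1.31 on the log2 scale by limma, SE 0.23, adjusted p 0.0765). Cd3e, a chain of the T cell receptor complex, was at 2.37 and 2.12 against 6.58 and 5.59 FPKM (1.26 on the log2 scale by limma, SE 0.15, adjusted p 0.0503). Divided by Ptprc, 2 of the 10 members were higher without overlap, 0 were lower and 8 overlapped between the groups. Of all 16857 genes above 0 in a library other than Ptprc, 2.71% were higher and 77.1% were lower on this ratio. The ratio of Nkg7 to Ptprc, for example, was 0.719 and 0.807 in the control samples and 0.965 and 0.629 in the 7KC samples, and that of Klrk1 was 0.125 and 0.167 against 0.163 and 0.141. Prf1 and Ncr1 were the members whose ratio to Ptprc did not overlap. The ratio of Prf1 was 0.0260 and 0.0138 in the control group and 0.101 and 0.0303 in the 7KC group, and that of Ncr1 was 0.0219 and 0.0204 against 0.0299 and 0.0279. Divided by Cd3e, 9 of the 10 members overlapped, 0 were lower and Prf1 was higher (1.99% of all genes were higher and 77.6% lower), with ratios of 0.0930 and 0.0369 against 0.239 and 0.112. The counts depended on single libraries, in a comparison where overlap is rarer by construction. Without 7KC replicate 2, 7 members were higher and 0 lower relative to Ptprc (5.99% and 79.4% of all genes), and without 7KC replicate 1, 2 were higher and 4 lower (5.97% and 80.9%). Without control replicate 1, 6 members were higher and 1 lower relative to Cd3e (5.49% and 83.1% of all genes), and without control replicate 2, 1 was higher and 4 lower (3.58% and 85.2%). In the other removals the member counts lay within these ranges. For example, 3 were higher and 3 lower relative to Cd3e without 7KC replicate 2 (3.65% and 83.6% of all genes).

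**Figure D3:**
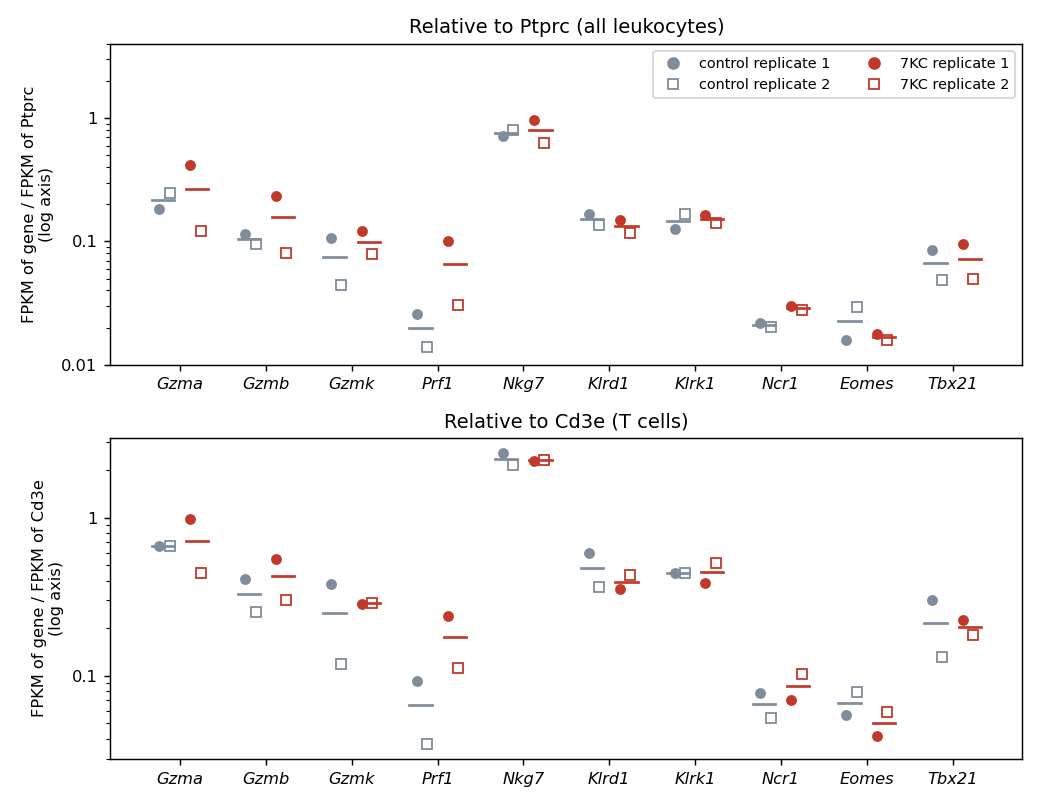
The FPKM of each member divided by that of Ptprc (top) and of Cd3e (bottom) in the same library (log axes), with control samples in grey, 7KC samples in red, circles for replicate 1, squares for replicate 2 and bars for group means. The groups overlap in 8 of 10 genes at the top and in 9 of 10 at the bottom, and Prf1 is separated in both.

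Markers of several cell types moved with the members, and their part in the result was not tested. Of all 12299 tested genes, 25.1% were higher and 27.4% were lower without overlap. These shares are the background for the marker counts here and in the next paragraph. All 15 tested T cell markers were higher in 7KC without overlap, and 1 of them, Cd247, passed the threshold. The summed levels of the list were 14.0 to 23.1 FPKM in the control samples and 53.4 to 54.9 FPKM in the 7KC samples. Trat1 and Ubash3a had control means of 0.0617 and 0.158 FPKM and passed the filter through their 7KC samples. Cd4 had a log2 difference of 1.42 (limma SE 0.17 and adjusted p 0.0512) and Cd8a, of killer T cells, 0.83 (limma SE 0.28 and adjusted p 0.229). All 8 genes of leukocytes in general were also higher without overlap, with sums of 158 to 260 against 501 to 558 FPKM. Among them Ptpn6, a phosphatase that inhibitory NK receptors recruit, had a ratio of means of 2.01 (limma adjusted p 0.0588) and Laptm5, a lysosomal protein of blood cells, had a ratio of 2.36 (adjusted p 0.0704). Of 13 NK cell markers, 4 of which (Gzma, Klrd1, Ncr1 and Eomes) are members, 5 were tested and 4 of these were higher without overlap, with sums of 5.05 to 6.71 against 9.65 to 14.2 FPKM. Members carried much of these sums, and the 9 other genes summed to 2.59 to 3.39 against 3.83 to 4.73 FPKM. Of the 9, S1pr5 had the highest level in every library and so weighed most in that sum. The fifth tested marker, S1pr5, a receptor for exit from tissue, was at 2.06 and 1.57 against 1.59 and 1.45 FPKM and overlapped (-0.19 on the log2 scale by limma, SE 0.18, adjusted p 0.613), as did Klra4 (Ly49D) at 0.247 and 0.0964 against 0.311 and 0.000401 FPKM. Khdc1a was listed at 0. Klrb1c (NK1.1) was at 0.336 and 0.358 against 0.839 and 0.654 FPKM (0.55 on the log2 scale by limma, SE 0.21, adjusted p 0.262). Itga2 (CD49b), of circulating NK cells, was at 0.101 and 0.0538 against 0.199 and 0.197 FPKM. The tested markers Klrb1c and Klre1 had control means of 0.347 and 0.371 FPKM and passed the filter through their 7KC samples. Itga1 (CD49a), of ILC1 and also of liver endothelium, was at 5.10 and 5.88 against 4.61 and 5.88 FPKM and overlapped (log2 change -0.07, SE 0.16, limma adjusted p 0.866, with a positive sign under rescaling to the same sum). Of 8 ILC1 markers, Tbx21 among them, 5 were higher without overlap and 1 was lower, with sums of 218 to 237 against 251 to 263 FPKM, most of it from Tmem176a (196 and 215 against 224 and 235 FPKM, limma adjusted p 0.540).

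The other marker lists gave the following. Mast cells and basophils had Mcpt1, Mcpt2, Mcpt4, Tpsab1 and Tpsb2 at 0 in all libraries, Mcpt8 at 0.116 FPKM in 7KC replicate 1 and 0 elsewhere, Cpa3 at 0.058 FPKM in 7KC replicate 2 and 0 elsewhere, and sums over 12 genes of 4.30 to 5.67 against 5.85 to 7.22 FPKM, most of it from Kit and Hdc. Plasmacytoid dendritic cells had 3 of 5 tested markers higher without overlap, Irf8 among them (sums of 357 to 364 against 372 to 449 FPKM, most of it from Bst2, which overlapped), macrophages and monocytes 9 of 12 higher and 1 lower (592 to 832 against 1400 to 2150 FPKM), and neutrophils 2 of 5 higher and 1 lower (20.3 to 35.8 against 40.7 to 43.6 FPKM). Cox6a2, a higher marker of plasmacytoid dendritic cells, had a control mean of 0.146 FPKM and passed the filter through its 7KC samples. B and plasma cells had 1 of 5 higher (3.67 to 17.8 against 8.92 to 9.79 FPKM), and endothelial cells 1 of 8 (130 to 153 against 131 to 192 FPKM). Of 11 tested markers of dividing cells 9 were higher and 1 was lower without overlap (34.4 to 35.6 against 56.9 to 63.8 FPKM). Hepatocyte markers were lower without overlap in 9 of 10 genes, with sums of 76058 to 86864 against 48381 to 64029 FPKM, and Alb itself overlapped.

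The other parts of the killing pathway were read from lists, and the shares of all 12299 tested genes without overlap, 25.1% higher and 27.4% lower, are the background for their counts. Of 14 tested genes of granule packing and release, 10 were higher without overlap, 1 was lower and 0 passed the threshold in limma (10 had an unadjusted p under 0.05), with a median log2 change of 0.72 against -0.03 over all tested genes. Srgn (serglycin, the granule proteoglycan that holds granzymes) was at 28.6 and 22.5 FPKM against 53.0 and 65.0 FPKM, a log2 difference of 1.19 (limma SE 0.17 and adjusted p 0.0595). Stx11, a syntaxin needed for granule fusion, had a log2 difference of 1.17 (limma SE 0.17 and adjusted p 0.0596). Serpinb9, an inhibitor of granzyme B, was at 5.35 and 5.71 against 9.42 and 8.76 FPKM, a log2 difference of 0.67 (limma SE 0.12 and adjusted p 0.0744). Lamp2, a lysosomal membrane protein, was the lower gene. Vamp7 was listed at 0 in all libraries, which can be a failed estimate.

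Of 10 tested genes of other killing and cytokine effectors, 9 were higher without overlap and 1 rose past the threshold, with a median log2 change of 1.02. That gene was Fgl2, a fibrinogen-like protein of activated T cells and macrophages, which rose from 6.66 and 5.13 to 19.4 and 23.5 FPKM (1.78 on the log2 scale by limma, SE 0.17, adjusted p 0.0327). Ifng was at 0.408 and 0.362 against 2.99 and 1.38 FPKM, with replicate 1 of the 7KC group the high library as for Gzmb (1.53 on the log2 scale by limma, SE 0.32, adjusted p 0.104). Ccl5, a chemokine stored by killer T cells, was at 109 and 45.4 against 411 and 312 FPKM (2.34 on the log2 scale by limma, SE 0.42, adjusted p 0.0774). Fasl, the ligand of the granule-independent death receptor Fas, was at 0.404 and 0.292 against 0.692 and 0.794 FPKM (0.55 on the log2 scale by limma, SE 0.21, adjusted p 0.263). Ifng and Fasl, with control means of 0.385 and 0.348 FPKM, passed the filter through their 7KC samples.

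Of 13 tested receptor partners and adaptors, 12 were higher without overlap and 1 rose past the threshold (median log2 change 1.10). It was Cd247, the signaling zeta chain used by NKp46 and by the T cell receptor, which rose from 0.590 and 0.586 to 2.41 and 2.61 FPKM (1.47 on the log2 scale by limma, SE 0.16, adjusted p 0.0451). The list shares Cd247, Cd3e and Lck with the T cell markers. Klrc1 overlapped, at 0.720 and 0.293 against 0.614 and 1.06 FPKM (limma adjusted p 0.513). Vav1, a signaling protein of lymphocytes and myeloid cells, had a log2 difference of 1.19 (limma SE 0.19 and adjusted p 0.0621). Sh2d1a, among the higher genes, had a control mean of 0.370 FPKM and passed the filter through its 7KC samples.

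Of 32 listed other receptors of NK and killer cells, 15 were tested, 13 were higher without overlap and 1 rose past the threshold (median log2 change 0.86). This was Klra2 (Ly49B), which unlike most Ly49 receptors is known from myeloid cells. It rose from 3.94 and 4.16 to 14.5 and 13.8 FPKM (1.69 on the log2 scale by limma, SE 0.11, adjusted p 0.0244). Klrb1b, an inhibitory NKR-P1 receptor, had a log2 difference of 1.21 (limma SE 0.19 and adjusted p 0.0612) and Slamf7, found on NK cells and other leukocytes, 1.66 (limma SE 0.34 and adjusted p 0.0999). The Klra genes share sequence and can have exchanged reads. Among the higher genes, Klrb1b, Klrb1c, Klre1, Cd226, Cd96, Cd160, Slamf6 and Pdcd1 had control means under 0.5 FPKM. They passed the filter through their 7KC samples.

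The ligands of these receptors had a smaller median, 0.32, with 5 of 9 tested genes higher without overlap and 0 past the threshold in limma (3 had an unadjusted p under 0.05). H2-T23, which encodes the Qa-1 ligand of CD94 receptors, was at 253 and 226 against 335 and 314 FPKM (0.44 on the log2 scale by limma, SE 0.13, adjusted p 0.191). Cd48, the ligand of the receptor 2B4, had a log2 difference of 0.97 (limma SE 0.24 and adjusted p 0.139) and H2-D1, a classical class I gene, 0.53 (limma SE 0.15 and adjusted p 0.180). The NKG2D ligands differed among themselves. Raet1a was at 0.122 and 0.115 against 0.423 and 0.716 FPKM, higher without overlap but under the filter (limma adjusted p 0.183 without a filter), and Ulbp1 was at 0.180 and 0.179 against 0.226 and 0.269 FPKM (adjusted p 0.527). Raet1b, Raet1c, Raet1d and Raet1e overlapped between the groups, with Raet1e at 0.747 and 0 against 0.827 and 0 FPKM, and H60b and H60c were listed at 0 throughout. The Raet1 genes are closely related and can have exchanged reads.

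Of 18 tested cytokine and receptor genes that drive killer cells, 16 were higher without overlap (median log2 change 0.75). Among the higher genes, Stat4 and Il18rap had control means of 0.407 and 0.426 FPKM and passed the filter through their 7KC samples. Il2rb, the receptor chain through which NK cells read interleukin-15 and interleukin-2, rose from 3.20 and 2.95 to 7.35 and 7.21 FPKM and passed the threshold (1.12 on the log2 scale by limma, SE 0.12, adjusted p 0.0423). Its partner Il2rg had a log2 difference of 1.53 (limma SE 0.20 and adjusted p 0.0523). The cytokine genes Il15 and Il18 differed less than these, with log2 changes of 0.61 (limma SE 0.21 and adjusted p 0.236) and 0.20 (limma SE 0.11 and adjusted p 0.409). Il21, under the filter, was higher without overlap at 0.0201 and 0.025 against 0.428 and 0.125 FPKM (limma adjusted p 0.326 without a filter). Il12a was also higher without overlap under the filter, Il12b overlapped, and Il2 was listed at 0 in all libraries.

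Of 17 tested other transcription factors of killer lymphocytes, 12 were higher and 2 were lower without overlap, and 1 rose past the threshold (median log2 change 0.57). It was Irf8, a factor of dendritic cells and other myeloid cells that NK cells also use, which rose from 10.6 and 8.16 to 26.8 and 26.2 FPKM (1.46 on the log2 scale by limma, SE 0.15, adjusted p 0.0369). Batf, a factor of activated T cells, had a log2 difference of 1.60 (limma SE 0.23 and adjusted p 0.0596), and Runx3, of CD8+ T and NK cells, was at 0.661 and 0.410 against 1.83 and 1.97 FPKM (1.22 on the log2 scale by limma, SE 0.20, adjusted p 0.0671). Prdm1, among the higher genes, had a control mean of 0.430 FPKM and passed the filter through its 7KC samples.

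Of 17 tested genes of chemokine receptors and homing, 13 were higher and 1 was lower without overlap (median log2 change 1.13). Cxcl9, an interferon-gamma-induced chemokine that draws Cxcr3+ lymphocytes, rose past the threshold (2.85 on the log2 scale by limma, SE 0.21, adjusted p 0.0244). Cxcl10, of the same family, had a log2 difference of 2.37 (limma SE 0.32 and adjusted p 0.0534), and Itgal, the integrin chain of LFA-1 that holds the killer cell to its target, 1.24 (limma SE 0.16 and adjusted p 0.0523). Of 20 tested granzyme substrates and death effectors, 13 were higher and 4 were lower without overlap, with a median log2 change of 0.24. Hmgb2, a chromatin protein cleaved by granzyme A and also abundant in dividing cells, rose from a mean of 3.92 ± 0.54 FPKM to 10.2 ± 0.258 FPKM (SD, n = 2) (1.28 on the log2 scale by limma, SE 0.14, adjusted p 0.0415). Bak1, a pore former of the mitochondrial death pathway, had a log2 difference of 0.84 (limma SE 0.10 and adjusted p 0.0512) and Lmnb1, a lamin, 0.88 (limma SE 0.13 and adjusted p 0.0596).

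**Figure D4:**
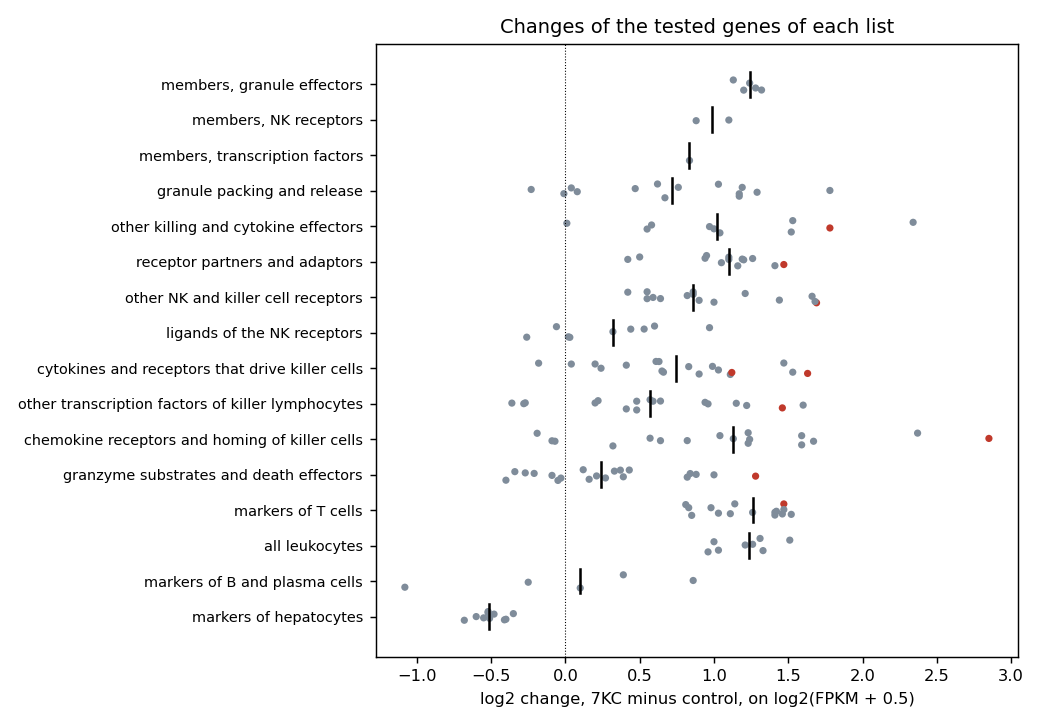
The log2 change of each tested gene of the members and of 13 other lists (points; vertical position within a row is arbitrary), with red for a limma adjusted p under 0.05 and a black bar for the median of the list. The medians of the granule members (1.24), T cell markers (1.26) and all-leukocyte genes (1.24) stand close together, and that of the hepatocyte markers is at -0.51. Those of the other members are 0.99 (NK receptors) and 0.83 (transcription factors). Some marker lists are not drawn, among them NK cells (median 0.55), ILC1 (0.35), macrophages and monocytes (1.07) and dividing cells (1.73).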

How the data were processed

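Total RNA of 4 mouse liver samples was sequenced as stranded mRNA libraries. The deposited FPKM values were made by the authors, whose processing notes name TopHat2 2.1.1, Bowtie2 2.2.8, SAMtools 0.1.18, Cuffdiff 2.2.1 and build mm10, with 1 file per sample. FPKM hold no counts. The depth was estimated from the whole-read steps of low values (72.3% to 73.8% lay within 0.1 of a whole read, with 200 bases taken off each transcript), so read numbers are estimates. Groups came from the diet in the labels. Values were tested as log2(FPKM + 0.5) for genes averaging 0.5 FPKM or more across libraries, with limma 3.58.1 in R 4.3.3 (trended prior, 2 residual and 3.27 prior degrees of freedom), and p-values were adjusted by Benjamini-Hochberg over 12299 genes. A test of 1 gene by exact permutation could not go below a two-sided p of 0.333, since there are 3 splits. The script was checked on simulated data. Alternatives were a pseudocount of 0.1 or 1, no filter, a mean of at least 2 FPKM, scaling to the same sum (TPM) or by median ratio, no trend, a replicate block, and leaving out each library.

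The members and all lists were chosen with earlier results of these data known. All 10 members were named, and from each list of killing-pathway genes those past the threshold (up to 4), filled to 3 by the smallest p, plus a fixed set of cell markers and ligands. Lamp2, Vamp7, Il2, Kit, Hdc, Tmem176a, Bst2, S1pr5, Klra4, Khdc1a, Ulbp1, the Raet1 genes other than Raet1e, H60b, H60c and the genes listed at 0 were named after their values were seen. The same holds for Klre1, Cd226, Cd96, Cd160, Slamf6, Pdcd1, Trat1, Ubash3a, Il12a, Il12b, Il21, Stat4, Il18rap, Sh2d1a, Prdm1, Cox6a2, Klrc1 and Lck. Promoter windows came from RefSeq, GRCm38.p6. One gene that the naming rule selects is not reported here.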

Additional observations from a re-analysis of the deposited data

How the results depend on the processing

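At the chosen settings 59 genes were higher in 7KC and 3 were lower (limma adjusted p under 0.05), and 0 of the 8 tested members were among them. These counts depended on the settings. The genes higher numbered 111 with a pseudocount of 1, 106 with a mean of at least 2 FPKM, 398 under the same sum (TPM), 94 under median ratio scaling, 39 without the trend, 0 without a filter and 0 with the replicate block. The genes lower numbered 1 without a filter, 7 under TPM, 1 without the trend and 0 with the replicate block. TPM moved the median log2 change of all genes from -0.03 to 0.16. Members higher were 1 with a pseudocount of 1, 1 with a mean of at least 2 FPKM (Nkg7, of 2 members tested), 2 under TPM (Nkg7 and Klrk1) and 0 with the replicate block. Same-numbered samples had a correlation of deviations of -0.141, and a crossed pairing, added after seeing the data, gave 551 genes higher, 37 lower and 2 members higher. The numbers are not known to pair the samples.

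Leaving out 1 library, where the lone sample is assumed to vary like the other group, gave 2 to 404 genes higher (2 without 7KC replicate 2, 4 without 7KC replicate 1, 404 without control replicate 1), 1 to 54 lower, and 0 to 2 members higher (Gzmk and Nkg7 without control replicate 1). Genes at least 2-fold higher without overlap numbered 799 of 12299 (6.5%), but 1548 of 16858 without a filter (9.18%). They numbered 464 of 9827 with a mean of at least 2 FPKM, and 613 to 1133 when a library was left out. Of the members, 8 of 8 tested met that rule, and 2 of 2 with a mean of at least 2 FPKM. When a library was left out 5 to 8 did, 5 without control replicate 2. Prf1 and Tbx21 were among the 8 and had passed the filter through their 7KC samples. The median log2 change over the tested members, 1.16, was 1.38 with a pseudocount of 0.1 (51 genes and 0 members higher), 0.86 with a pseudocount of 1 and 0.91 (without 7KC replicate 1) to 1.33 when a library was left out. Members higher relative to Ptprc numbered 2 to 7 (7 without 7KC replicate 2, and 5.99% of all genes), and relative to Cd3e 1 to 6 (6 without control replicate 1, and 5.49% of all genes). Signs reversed for Itga1 (0.12 under TPM, and -0.23 to 0.10 leaving out a library), Gzmc (-0.16 to 0.92) and Raet1e (-0.61 to 0.75). The cause of these changes was not tested.

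There were 2 samples a group, and the values of Prf1, Ncr1, Eomes and Gzmb rested on an estimated 1.9 to 61.0 reads each. Those of Klrd1 and Gzmk rested on 4.1 to 12.9 and 2.8 to 21.3 reads at the shortest coding transcript. The exact 95% counting intervals of their ratios of summed reads were 1.01 to 4.19 and 1.54 to 5.39.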
